A study of Mus musculus with 25 samples.

Results

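The secreted antagonists and enhancers of Wnt signaling that are followed here are 10 genes fixed by name: the secreted Frizzled-related proteins Sfrp1, Sfrp2 and Frzb, the Dickkopf genes Dkk2 and Dkk3, the Wnt inhibitory factor Wif1, sclerostin (Sost), and the R-spondins Rspo1, Rspo3 and Rspo4. They were chosen by name, with earlier results of these data known, among the 47729 genes of the bulk RNA-seq count table. Counts of called members set beside the share of all genes are therefore a description and no test of the list. The members were also looked up among the 31053 genes of the single-cell RNA-seq matrices, and all 10 were found in both. All 10 passed the filter on low counts, together with 15773 genes in all, so no member dropped out for low counts.

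The samples were mouse lung cells sorted as lineage negative (Lin-), that is negative for the leukocyte marker CD45, the endothelial marker CD31 and the epithelial marker CD326, a gate that keeps fibroblasts and other mesenchymal cells. Bulk RNA-seq had 4 libraries in each of 5 conditions, 20 in all. Single-cell RNA-seq had 5 libraries, 1 a condition, and each came from a pool of 4 mice. All mice carried Col1a1-Cre-ERT2 and floxed Fas alleles (Fas fl/fl), so Cre recombinase was driven by the Col1a1 promoter, acted in cells with that promoter active and needed tamoxifen, and the floxed part of Fas, a death receptor, is exon 9. Naive mice received no bleomycin, an agent that injures the lung and is followed by fibrosis. Mice called Fas-/- received bleomycin and tamoxifen and mice called Fas+/+ bleomycin and corn oil, with lungs taken 3 or 6 weeks after bleomycin, so in each genotype comparison the deletion and tamoxifen cannot be told apart. For naive mice the study names neither a saline instillation nor injections. Against naive mice, bleomycin therefore cannot be told apart from its instillation and the injections, nor in Fas-/- mice from tamoxifen and the deletion. Replicates are individual animals by the statistics section of the study, but no label ties a bulk library to a mouse, so p-values measure the spread between libraries.

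Wnt proteins signal by binding Frizzled receptors together with the co-receptors Lrp5 and Lrp6, and their signal is limited outside the cell. Secreted Frizzled-related proteins and Wif1 bind Wnt ligands, whereas Dkk2 and sclerostin bind the co-receptors. Dkk3 is a divergent Dickkopf whose action on the pathway is less clear. R-spondins act the other way, since they bind Lgr4, Lgr5 or Lgr6 and the ubiquitin ligases Znrf3 and Rnf43 that otherwise remove Frizzled from the cell surface, and so keep the receptor there. In the lung, Wnt signals pass between mesenchyme and epithelium during development and repair and have been studied in fibrosis.

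Upstream sequences are shown for Dkk2, which was higher after bleomycin in bulk RNA, and for Sost and Rspo4, which were lower. RefSeq start sites on GRCm38.p6 were given for 7 of the 10 genes, all but Sfrp1, Dkk3 and Rspo3, and the 250 bases before each start were searched on both strands for the TATA box (TATAAA), the GC box (GGGCGG), the E-box (CAGCTG), the TCF/LEF motifs (CTTTGAA or CTTTGAT) and the AP-1 motif (TGANTCA). No match overlapped a match of another motif. Matches are in capitals, and for a match on the opposite strand the capitals show its reverse complement.
Dkk2 (chr3:132085042-132085291, plus strand): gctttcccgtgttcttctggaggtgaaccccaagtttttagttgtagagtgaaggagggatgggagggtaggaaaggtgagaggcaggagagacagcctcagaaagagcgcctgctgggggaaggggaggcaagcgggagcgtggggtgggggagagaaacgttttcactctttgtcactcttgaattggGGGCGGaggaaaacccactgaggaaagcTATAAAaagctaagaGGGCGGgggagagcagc
Sost (chr11:101967016-101967265, minus strand, read 5′ to 3′ along the gene): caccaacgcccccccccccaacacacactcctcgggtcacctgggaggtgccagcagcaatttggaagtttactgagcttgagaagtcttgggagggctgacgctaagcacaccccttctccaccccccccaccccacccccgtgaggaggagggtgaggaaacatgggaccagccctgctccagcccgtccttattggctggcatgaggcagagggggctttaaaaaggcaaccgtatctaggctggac
Rspo4 (chr2:151842677-151842926, plus strand): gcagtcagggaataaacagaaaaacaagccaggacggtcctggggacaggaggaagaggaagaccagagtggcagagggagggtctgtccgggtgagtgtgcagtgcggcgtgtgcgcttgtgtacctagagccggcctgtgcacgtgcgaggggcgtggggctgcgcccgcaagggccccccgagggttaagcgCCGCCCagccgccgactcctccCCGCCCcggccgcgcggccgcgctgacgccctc
Dkk2 held a TATA box from 32 to 27 bases before the start and 2 GC boxes, 1 on each side of it. Rspo4 held 2 GC boxes, both on the strand opposite to the gene, and the Sost window held none of the 6 motifs. Among all 7 windows, GC boxes were found in 4 (Frzb, Dkk2, Wif1 and Rspo4) and in 32.7% of 32851 RefSeq windows of the same length, the TATA box in 2 (Dkk2 and, on the opposite strand, Wif1) and in 12.4%, and the E-box in 1 (Frzb, 17 to 12 bases before the start) and in 13%. Neither TCF/LEF motif (4.46% and 3.21% of all windows) nor the AP-1 motif (6.75%) was in any of the 7. A match is only a stretch of letters, and its absence says nothing about a factor.

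Bulk libraries held between 11819700 and 25189096 counts in all. A pair of 3-week libraries stood apart from their groups. Replicate 1 of the Fas+/+ mice held a summed 9685 CPM (counts scaled to a common library size) of 9 endothelial markers against 2743 to 3585 in the other 3 libraries, and 10907 CPM of 10 profibrotic fibroblast markers against 46202 to 56303. Replicate 4 of the Fas-/- mice held 8923 CPM of endothelial markers against 744 to 1237, and 19638 CPM of profibrotic markers against 38551 to 48333. Naive libraries held 2980 to 9591 CPM of 6 red cell markers and the bleomycin groups 17.1 to 236. Fas, counted over all its exons, stood at 31.4 ± 6.24 CPM in 6-week Fas+/+ mice and at 40.4 ± 4.59 CPM in 6-week Fas-/- mice (mean ± SD, n = 4; log2 fold change, log2FC, of 0.36 ± 0.197 SE, adjusted p = 0.719). That count covers the whole gene and not the floxed exon alone, so it does not check the deletion. In its single-cell data the study reports less expression of that exon in Fas-/- mice at both times. In bulk RNA, fewer cells of a type and less RNA per cell cannot be told apart.

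Per length of exon, the 10 genes spanned a wide range in naive lungs. Dkk3 was highest, at 136 ± 10.4 RPKM (reads per kilobase of exon, scaled like CPM; mean ± SD, n = 4), and was followed by Sfrp2 at 23.5 ± 7.33, Rspo1 at 23.3 ± 8.05, Sfrp1 at 21.3 ± 3.89 and Sost at 14.5 ± 4.39 RPKM. Sfrp2, Rspo1 and Sfrp1 did not differ beyond their spread. Rspo4 at 3.69 ± 1.2 and Wif1 at 3.34 ± 0.677 RPKM did not differ beyond their spread either. Rspo3 at 0.409 ± 0.0701, Dkk2 at 0.356 ± 0.354 and Frzb at 0.173 ± 0.0329 RPKM were lowest. Dkk2 lay within its SD of Rspo3 and of Frzb. Rspo3, from 0.325 to 0.490 RPKM, lay above Frzb, from 0.133 to 0.201 RPKM, without overlap. After bleomycin the order of the means changed. At 3 weeks in Fas+/+ mice Sfrp1 reached 129 ± 73.5 RPKM and was within its spread of Dkk3 at 99.8 ± 3.88. Dkk2 at 8.59 ± 5.19 and Frzb at 7.68 ± 4.90 RPKM had higher means than Sost at 3.06 ± 1.75 and Rspo4 at 0.772 ± 0.458 RPKM. Replicate 1 had the reverse order, with Sost at 5.56 and Rspo4 at 1.45 against Dkk2 at 0.927 and Frzb at 0.682 RPKM.

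**Figure D1:**
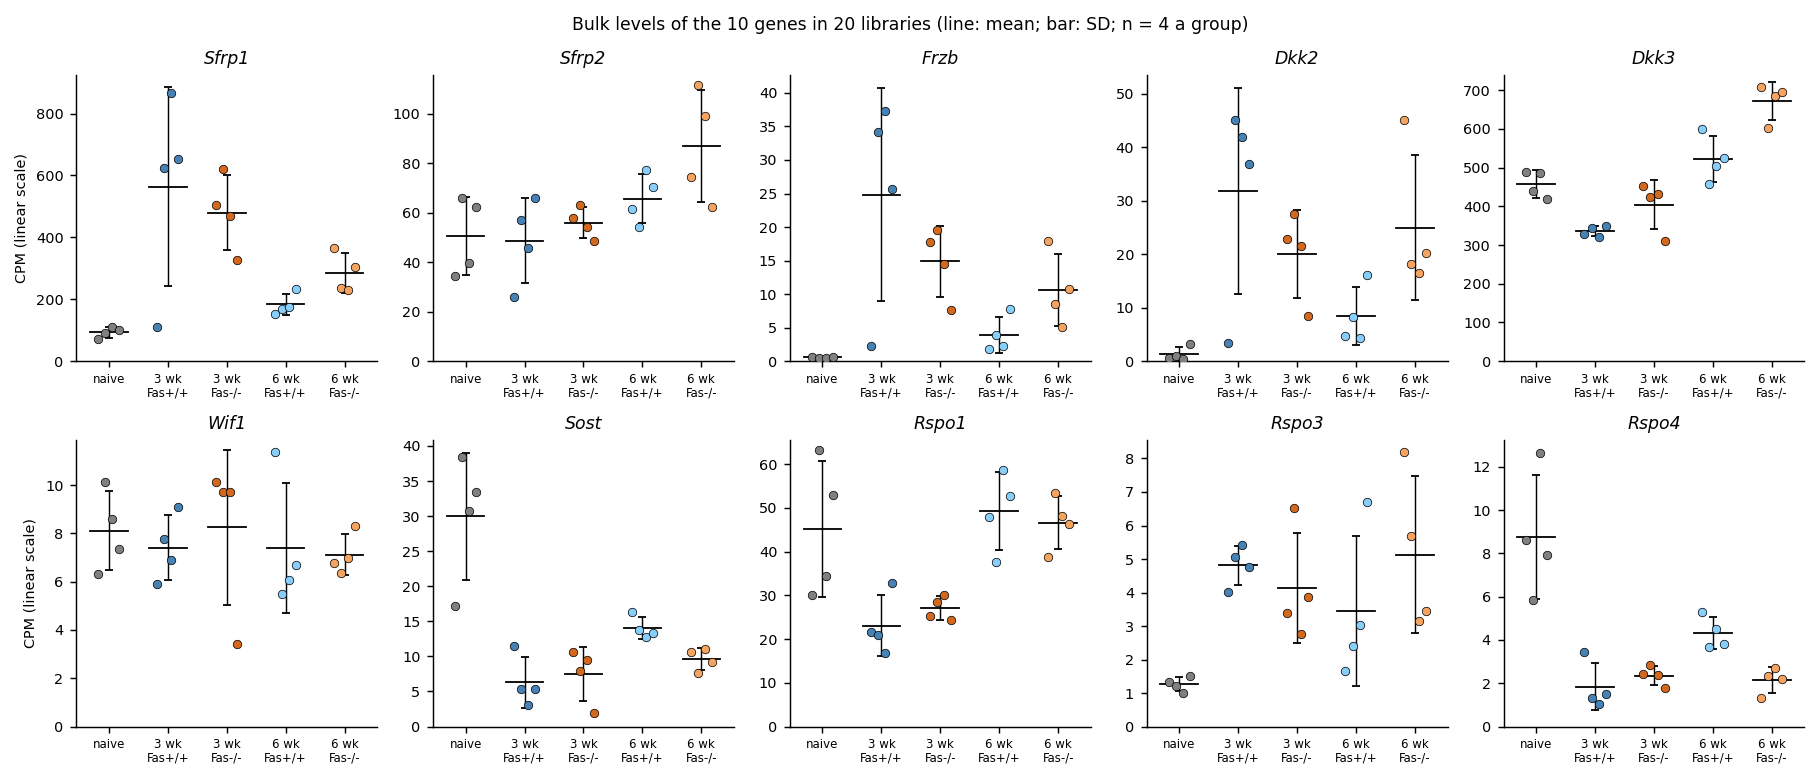
CPM (vertical axis, linear scale, a separate scale for each gene) of the 10 genes in the 20 bulk libraries, with points for libraries, lines for group means and bars for SD (n = 4). Frzb and Dkk2 are near 0 in naive libraries and higher in all groups after bleomycin, Sost and Rspo4 are lower, and the lone low points of Sfrp1, Frzb and Dkk2 at 3 weeks in Fas+/+ mice are replicate 1.

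The first question was how the 10 genes differed from naive mice at 3 weeks after bleomycin. Against naive mice, 8 of the 10 passed the edgeR test in Fas+/+ mice, 4 higher (Sfrp1, Frzb, Dkk2 and Rspo3) and 4 lower (Dkk3, Sost, Rspo1 and Rspo4), where 41.3% of all tested genes did (22.1% higher and 19.2% lower). In Fas-/- mice 7 passed, the same genes without Dkk3, where 32% of all genes did (17.2% higher and 14.8% lower). In each genotype 6 members had groups that did not overlap, against 32.2% and 31.1% of all genes. Both comparisons share the naive libraries. The median log2 fold change of the 10 was -0.09 in Fas+/+ and 0.09 in Fas-/- mice, close to the medians of all genes (0.01 and 0.02), because members moved both ways.

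Among the antagonists that bind Wnt ligands, Frzb changed most. Frzb (secreted Frizzled-related protein 3, chromosome 2 from 80411970 to 80447625 of GRCm38, minus strand) was at 0.646, 0.519, 0.430 and 0.649 CPM in the 4 naive libraries, at 2.21, 34.2, 37.3 and 25.7 CPM in 3-week Fas+/+ and at 17.8, 19.6, 14.5 and 7.59 CPM in 3-week Fas-/- mice. Every bleomycin library was above every naive library, and the lowest value in each genotype was that of the library that stood apart. The rise was 43.5-fold in Fas+/+ (log2FC 5.44 ± 0.753 SE, adjusted p = 3.74e-05) and 26.2-fold in Fas-/- mice (log2FC 4.71 ± 0.742 SE, adjusted p = 0.000222). Sfrp1 (chromosome 8 from 23411502 to 23449632, plus strand) was at 71.2, 90.4, 112 and 99.6 CPM in naive mice, at 109, 626, 866 and 654 CPM in 3-week Fas+/+ and at 503, 620, 470 and 326 CPM in 3-week Fas-/- mice. The groups overlapped in Fas+/+ mice through replicate 1 alone. Sfrp1 rose 6.05-fold in Fas+/+ (adjusted p = 0.000105; p = 0.0571 by exact permutation) and 5.15-fold in Fas-/- mice (adjusted p = 0.000381; p = 0.0286 by exact permutation, the smallest that 4 libraries against 4 allow).

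Sfrp2 (chromosome 3 from 83766321 to 83774316, plus strand) and Wif1 (chromosome 10 from 121033960 to 121100650, plus strand) did not pass the test at 3 weeks. Sfrp2 ran from 34.3 to 65.8 CPM in naive, from 26.1 to 65.8 CPM in Fas+/+ and from 48.4 to 63.3 CPM in Fas-/- mice. Its log2FC was -0.06 in Fas+/+ (95% interval -0.59 to 0.48, adjusted p = 0.879) and 0.15 in Fas-/- mice (-0.38 to 0.68, adjusted p = 0.694). Wif1 ran from 6.33 to 10.1 CPM in naive and from 5.89 to 9.07 CPM in Fas+/+ mice, and in Fas-/- mice 3 libraries lay between 9.72 and 10.1 CPM while replicate 4, the library that stood apart, was at 3.41 CPM. The 95% interval of its log2 fold change was -0.72 to 0.46 in Fas+/+ (adjusted p = 0.743) and -0.56 to 0.61 in Fas-/- mice (adjusted p = 0.959).

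The antagonists that act on the co-receptors moved in opposite directions. Dkk2 (chromosome 3 from 132085292 to 132180304, plus strand) was at 0.560, 1.04, 0.430 and 3.25 CPM in naive mice, at 3.43, 45.1, 41.9 and 36.8 CPM in 3-week Fas+/+ and at 22.8, 27.5, 21.6 and 8.41 CPM in 3-week Fas-/- mice. As for Frzb, each bleomycin library was above each naive library and the libraries that stood apart were lowest. Dkk2 rose 23.8-fold in Fas+/+ (log2FC 4.58 ± 0.770 SE, adjusted p = 0.000205) and 15.1-fold in Fas-/- mice (log2FC 3.92 ± 0.756 SE, adjusted p = 0.00104). These folds depended on naive replicate 4, the highest naive library, without which the log2FC was 5.52 and 4.86 (adjusted p = 0.000207 and 0.000869). Sost, which encodes sclerostin (chromosome 11 from 101962458 to 101967015, minus strand), was at 17.2, 38.5, 30.7 and 33.4 CPM in naive mice, at 11.5, 5.4, 3.01 and 5.37 CPM in 3-week Fas+/+ and at 10.6, 7.92, 9.49 and 1.99 CPM in 3-week Fas-/- mice. No naive library was as low as any library after bleomycin. Sost was 4.67-fold lower in Fas+/+ (log2FC -2.22 ± 0.401 SE, adjusted p = 0.000373) and 3.99-fold lower in Fas-/- mice (95% interval of the log2FC -2.83 to -1.17, adjusted p = 0.00125). Dkk3 (chromosome 7 from 112116017 to 112159057, minus strand) was at 488, 438, 486 and 418 CPM in naive mice and at 328, 344, 321 and 348 CPM in Fas+/+ mice at 3 weeks, a small fall without overlap (log2FC -0.45 ± 0.106 SE, adjusted p = 0.0028). In Fas-/- mice, at 453, 424, 431 and 310 CPM, it did not pass the test (log2 fold change -0.18, 95% interval -0.40 to 0.04, adjusted p = 0.210).

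The 3 R-spondins also split. Rspo4 (chromosome 2 from 151842927 to 151874668, plus strand) was at 8.61, 5.83, 12.7 and 7.92 CPM in naive mice, at 3.43, 1.30, 1.06 and 1.52 CPM in 3-week Fas+/+ and at 2.42, 2.85, 2.38 and 1.78 CPM in 3-week Fas-/- mice. All naive libraries were higher. The gene was 4.68-fold lower in Fas+/+ (log2FC -2.23 ± 0.323 SE, adjusted p = 5.52e-05) and 3.70-fold lower in Fas-/- mice (log2FC -1.89 ± 0.315 SE, adjusted p = 0.000336). Rspo3 (chromosome 10 from 29452416 to 29535867, minus strand) was at 1.34, 1.2, 1.00 and 1.51 CPM in naive mice and rose to 4.02, 5.05, 5.41 and 4.76 CPM in Fas+/+ (3.78-fold, adjusted p = 0.00114) and to 3.39, 6.52, 2.77 and 3.87 CPM in Fas-/- mice (3.27-fold, adjusted p = 0.00385), again without overlap. Lymphatic endothelial-like cells had the highest Rspo3 level in the single-cell data, and all 6 lymphatic markers rose in both comparisons (median log2FC 4.72 and 4.14), from a summed 8.98 to 22 CPM in naive libraries to 265 to 403 CPM in Fas+/+ and 98.9 to 554 CPM in Fas-/- libraries. Of the 9 endothelial markers 9 and 8 rose (median 4.64 and 3.98). Lymphatic endothelial-like cells held only a small part of the Rspo3 molecules counted, as given below. With the endothelial, not the lymphatic, markers as a covariate, the log2FC of Rspo3 by edgeR was 2.31 (adjusted p = 0.00968) and 1.99 (adjusted p = 0.0077). That covariate itself differed between conditions, so the fit cannot separate these markers from bleomycin. The part of these cells in the rise of Rspo3 was not tested. Rspo1 (chromosome 4 from 124986430 to 125009099, plus strand) was at 30.02, 63.2, 34.5 and 53.0 CPM in naive mice, at 21.7, 20.9, 16.8 and 32.9 CPM in 3-week Fas+/+ and at 25.2, 28.5, 30.1 and 24.3 CPM in 3-week Fas-/- mice. It was 1.95-fold lower in Fas+/+ (adjusted p = 0.00228; p = 0.0571 by exact permutation) and 1.67-fold lower in Fas-/- mice (adjusted p = 0.0163; p = 0.0571 by exact permutation), with groups that overlapped in both.

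Markers of mesothelial cells, which line the lung surface, moved with Rspo1. The summed level of 9 mesothelial markers, none of which is at 0 in any library, ran from 750 to 1384 CPM in naive mice, from 363 to 713 CPM in Fas+/+ and from 516 to 611 CPM in Fas-/- mice at 3 weeks, and from 716 to 1262 CPM over both genotypes at 6 weeks. Across the 20 libraries the correlation of Rspo1 with the mean log2 CPM of those markers was 0.97. With that mean as a covariate the log2 fold change of Rspo1 was 0.01 in Fas+/+ (adjusted p = 0.975) and 0.14 in Fas-/- mice at 3 weeks (adjusted p = 0.387), and it was 0.29 in Fas+/+ mice at 6 weeks (adjusted p = 0.0368). The covariate itself differed between conditions, and the same fit lowered the number of genes called at 3 weeks from 6517 to 2656 in Fas+/+ and from 5045 to 1841 in Fas-/- mice. In the single-cell data, without replicates, the point values of the share of mesothelial-like cells went the other way, with overlapping counting intervals. The share was 3.98% in naive mice (24 cells, 95% interval 2.57 to 5.86). At 3 weeks it was 5.67% (4.82 to 6.61) in Fas+/+ and 6.79% (5.85 to 7.82) in Fas-/- mice. Under a finer clustering, a mesothelial-like cluster of 214 shallow cells held 1 naive cell, and 36 and 42 cells of these 3-week mice. The shares also count shallower copies of barcodes shared between samples, described below, so their contrast with bulk RNA is limited. Over the 20 bulk libraries, which share the 5 conditions, Sfrp1, Frzb and Dkk2 followed the profibrotic markers (Pearson's r = 0.97, 0.94 and 0.87). Sost followed the vascular smooth muscle markers (0.86), though nearly as closely the Hhip myofibroblast (0.85) and pericyte markers (0.85). Rspo4 followed the lipofibroblast markers (0.81) and the red cell markers (0.86), the latter high in naive mice alone. Against naive mice the median log2FC of the lipofibroblast markers was -1.20 and -0.63 at 3 weeks in Fas+/+ and Fas-/- mice. It was -0.33 and -0.30 at 6 weeks, and -0.014 between genotypes at 6 weeks. The changes of Rspo4 in the 6-week comparisons are given below. The part of these markers in the changes of the members was not tested.

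Antisense or overlapping annotated genes touch 4 members: Gm20276 on the same strand and Gm48159 on the opposite strand of Rspo3, Rspo4os opposite to Rspo4, Gm26771 opposite to Sfrp2 and Gm12930 opposite to Rspo1. The library kit kept the strand, but the strand setting of the counting is not given in the sources used here, so reads of these partners cannot be told apart from those of the members.

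At 6 weeks fewer members differed from naive mice in Fas+/+ mice than at 3 weeks. Of the 10 genes, 3 passed the test against naive mice (Frzb, Dkk2 and Rspo3, all higher), where 5.31% of all genes did (3.57% higher and 1.74% lower), and 6 had groups without overlap, where 16.6% of all genes did. Frzb was at 1.78, 3.95, 2.28 and 7.75 CPM, 6.90-fold above naive mice (log2FC 2.79 ± 0.745 SE, adjusted p = 0.0348). Dkk2 was at 4.76, 8.32, 4.41 and 16.2 CPM (6.32-fold, adjusted p = 0.0446, and 12.1-fold, adjusted p = 0.0229, without naive replicate 4) and Rspo3 at 1.65, 2.40, 3.02 and 6.70 CPM (2.70-fold, adjusted p = 0.0423). These 3 calls lay close to the threshold: with 1 library left out in turn, Frzb remained called in 14, Rspo3 in 9 and Dkk2 in 5 of 20 fits. All 12 alveolar epithelial markers rose in the same comparison (median log2FC 4.12), from a summed 51.4 to 131 CPM in naive to 536 to 1516 CPM in 6-week Fas+/+ libraries. With them as a covariate, or with the replicate block, 0 members were called. Over all genes the covariate fit called 11 and the block fit 754, against 837 in the main fit. Sfrp1, at 154, 170, 175 and 234 CPM, Sost, at 16.4, 13.7, 12.8 and 13.3 CPM, and Rspo4, at 5.29, 3.66, 4.51 and 3.83 CPM, had no overlap with naive mice but did not pass the test (log2 fold changes 0.98, -1.09 and -1.02; adjusted p = 0.166, 0.111 and 0.0599). All 3 passed when the libraries that stood apart at 3 weeks were left out (adjusted p = 0.00162, 0.00227 and 0.00659), which gave 6 called members. Over all genes that fit called 2101, against 837 in the main fit.

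In Fas-/- mice at 6 weeks 7 of the 10 passed the test against naive mice, 5 higher (Sfrp1, Frzb, Dkk2, Dkk3 and Rspo3) and 2 lower (Sost and Rspo4), where 6.48% of all genes did (3.66% higher and 2.81% lower), and 7 had no overlap, where 16.1% of all genes did. Frzb was at 17.96, 8.55, 5.14 and 10.8 CPM, 18.7-fold above naive mice (log2FC 4.22 ± 0.739 SE, adjusted p = 0.00268). Dkk2 was at 45.2, 18.1, 16.4 and 20.3 CPM, 18.8-fold above (log2FC 4.23 ± 0.762 SE, adjusted p = 0.0032), with replicate 1 far above the other 3, and 36.1-fold above without naive replicate 4 (adjusted p = 0.00318). Sfrp1 was at 366, 237, 231 and 304 CPM (3.05-fold, adjusted p = 0.0204). Dkk3, which was lower at 3 weeks in Fas+/+ mice, stood at 707, 601, 684 and 694 CPM, 1.47-fold above naive mice with no overlap (log2FC 0.55 ± 0.106 SE, adjusted p = 0.00475). Rspo3 was at 8.20, 5.69, 3.16 and 3.44 CPM (4.04-fold, adjusted p = 0.0059). Sost was at 10.6, 7.58, 11.1 and 9.24 CPM, 3.11-fold below naive mice (adjusted p = 0.0182), and Rspo4 at 1.31, 2.36, 2.71 and 2.21 CPM, 4.07-fold below (log2FC -2.03 ± 0.318 SE, adjusted p = 0.00126). Sfrp2, at 74.4, 112, 99.3 and 62.2 CPM, had a log2 fold change of 0.78 (95% interval 0.25 to 1.31) and did not pass the test (adjusted p = 0.0786).

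**Figure D2:**
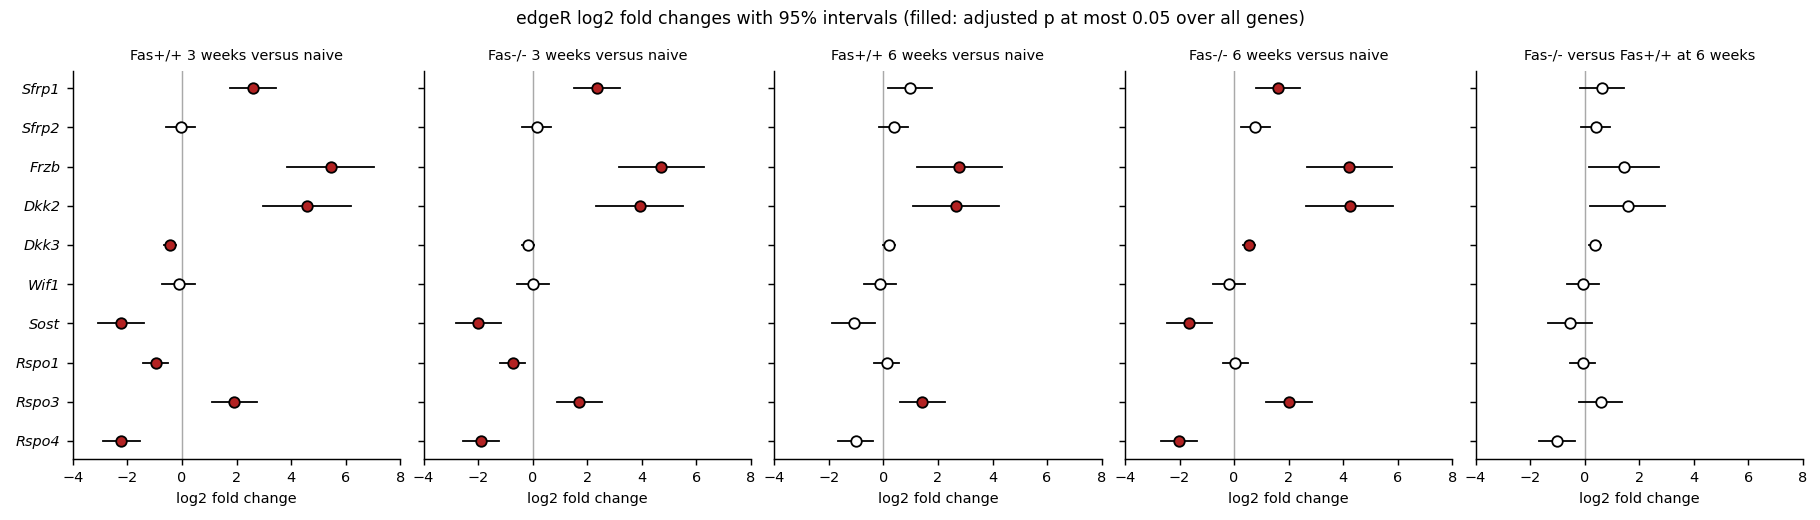
Log2 fold changes (horizontal axis) of the 10 genes (rows) by edgeR, with 95% intervals, for each bleomycin group against naive mice and for Fas-/- against Fas+/+ mice at 6 weeks. Filled points had an adjusted p of 0.05 or less over all genes tested: 8, 7, 3 and 7 members against naive mice, and 0 between genotypes at 6 weeks.

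Next, the change from 3 to 6 weeks was taken within each genotype. In Fas+/+ mice 7 of the 10 passed the test, where 22.9% of all genes did (12% higher and 10.9% lower): Sfrp1 (log2FC -1.62 ± 0.392 SE, adjusted p = 0.00666), Frzb (-2.66, SE 0.620, adjusted p = 0.00529) and Dkk2 (-1.92, SE 0.657, adjusted p = 0.043) fell, and Dkk3 (0.64), Sost (1.13), Rspo1 (1.09) and Rspo4 (1.21) rose (adjusted p = 0.000573, 0.0465, 0.00219 and 0.0113). For Dkk3, Sost, Rspo1 and Rspo4 the groups did not overlap (23.5% of all genes had none), whereas the 3 genes that fell overlapped through replicate 1 at 3 weeks. Dkk2 and Sost were each called in 8 of the 20 fits with 1 library left out. In Fas-/- mice 2 of the 10 passed, where 9.02% of all genes did (4.48% higher and 4.54% lower), Dkk3 (0.73, SE 0.106, adjusted p = 0.00121) and Rspo1 (0.79, SE 0.220, adjusted p = 0.0346), both higher at 6 weeks without overlap. The log2 fold change of Frzb was -0.49 (95% interval -1.70 to 0.73), that of Dkk2 0.32 (-1.01 to 1.64), that of Sost 0.36 (-0.46 to 1.19) and that of Rspo4 -0.14 (-0.82 to 0.54). Whether the time course differed between genotypes was tested as an interaction. None of the 10 passed (1 of 15773 genes did, 0.00634%), DESeq2 also called 0, and 3 had an unadjusted p under 0.05: Frzb (2.17, SE 0.836, adjusted p = 0.495), Dkk2 (2.23, SE 0.906, adjusted p = 0.546) and Rspo4 (-1.35, SE 0.454, adjusted p = 0.385). The share of all genes at that unadjusted p was not taken. Without the libraries that stood apart, a setting chosen after the data were seen, 4 passed: Sfrp1 (1.07, adjusted p = 0.0437), Frzb (2.35, adjusted p = 0.0376), Sost (-1.53, adjusted p = 0.029) and Rspo4 (-1.96, adjusted p = 0.0194), and leaving out replicate 1 of the Fas+/+ mice alone gave 2, Frzb and Rspo4. For fits with 1 library left out, counts over all genes are not given here. Over all genes, leaving out the pair raised the number called in the interaction from 1 to 392. That pair was singled out in part for low profibrotic markers, which Sfrp1 and Frzb followed across libraries, so the higher 3-week values of these genes without it are not independent of the choice.

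The genotypes were then compared directly. At 3 weeks no member passed the edgeR test (0.171% of all genes did, 0.165% higher and 0.00634% lower), DESeq2 called 0, 1 had an unadjusted p under 0.05 (Dkk3, log2 fold change 0.27, adjusted p = 0.441), and no member had groups without overlap (3.92% of all genes). Without the libraries that stood apart Dkk3 (0.37, adjusted p = 0.0301) and Sost (0.98, adjusted p = 0.0449) were called higher in Fas-/- mice, and Dkk3 alone was called without replicate 4 of the Fas-/- mice. Over all genes the fit without the pair called 602 at 3 weeks, against 27 in the main fit. At 6 weeks no member passed either (0.0507% of all genes did, 0.0254% in each direction, and DESeq2 called 0 members), 4 had an unadjusted p under 0.05, and 4 had groups without overlap, where 6.81% of all genes did. The share of all genes at an unadjusted p under 0.05 was not taken at either time, so those counts have no background. Sost and Rspo4 had been picked out by the study for this contrast in these libraries, so their direction here is no independent evidence. Rspo4 was 2.01-fold lower in Fas-/- mice (log2FC -1.01 ± 0.316 SE, 95% interval -1.67 to -0.34, adjusted p = 0.284; p = 0.0286 by exact permutation), and each Fas-/- library was below each Fas+/+ library. Sost was 1.46-fold lower (log2FC -0.54 ± 0.386 SE, 95% interval -1.36 to 0.27, adjusted p = 0.851; p = 0.0286 by exact permutation). Dkk3 was 1.29-fold higher (log2FC 0.36 ± 0.106 SE, 95% interval 0.14 to 0.59, adjusted p = 0.224; p = 0.0286 by exact permutation) and Dkk2 2.97-fold higher (log2FC 1.57 ± 0.652 SE, 95% interval 0.20 to 2.94, adjusted p = 0.517; p = 0.0286 by exact permutation), both without overlap. Frzb was 2.71-fold higher (log2FC 1.44 ± 0.608 SE, adjusted p = 0.522; p = 0.0571 by exact permutation), with overlap. Intervals for the rest included 0, at -0.17 to 1.44 for Sfrp1, -0.13 to 0.93 for Sfrp2, -0.21 to 1.37 for Rspo3, -0.65 to 0.53 for Wif1 and -0.53 to 0.38 for Rspo1. Without the libraries that stood apart, Dkk3 (0.37, adjusted p = 0.0316) and Rspo4 (-1.01, adjusted p = 0.0464) passed the test at 6 weeks, although those 2 libraries are of another time point and only share the fit. Over all genes that fit called 220 at 6 weeks, against 8 in the main fit.

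Other genes of the pathway were read from lists written with earlier results of these data known. Among 10 other secreted antagonists and R-spondins, 5 were tested (Sfrp4, Sfrp5, Notum, Draxin and Rspo2) and none passed in any comparison by edgeR, with at most 3 at an unadjusted p under 0.05 in a comparison, and DESeq2 called 1, at 3 weeks in Fas+/+ mice. Among 23 receptors and receptor regulators 21 were tested. At 3 weeks in Fas+/+ mice 3 were higher, Fzd8 (log2 fold change 0.46), Fzd6 (3.12) and the Wnt5a receptor Ror2 (0.68), and 8 lower, led by Znrf3 (-0.97), Fzd7 (-1.09) and Lrp4 (-1.02), where 22.1% of all genes were higher and 19.2% lower, and in Fas-/- mice 3 were higher and 6 lower, where 17.2% and 14.8% of all genes were. At 6 weeks 1 was higher and 1 lower in each genotype, with Znrf3, a target of R-spondins, lower in both (-0.33 in Fas+/+ and -0.53 in Fas-/- mice). Of all genes 3.57% were higher and 1.74% lower there in Fas+/+ mice, and 3.66% and 2.81% in Fas-/- mice. Among 21 ligands and secretion genes 15 were tested, and 6 were higher and 5 lower at 3 weeks in Fas+/+ mice, where 22.1% and 19.2% of all genes were. The ligand Wnt10a, at 0 to 0.0433 CPM in naive libraries, was at 0.491 to 13.3 CPM there and was among the 3 tested genes most like Frzb over the 20 libraries, whereas the ligand Wnt2 was lower (-1.26).

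Among 8 feedback and response genes, which rise or fall with Wnt signals in many cells, 7 were tested. At 3 weeks Bambi (-1.07), Axin2 (-0.84) and Tnfrsf19 (-0.94) were lower and Nkd2 (1.22) and Tcf7 (0.57) higher in Fas+/+ mice. The same 5 genes were called in the same directions in Fas-/- mice (-0.93, -0.55, -0.73, 1.15 and 0.39). Of all genes, 41.3% were called against naive mice at 3 weeks in Fas+/+ mice and 32% in Fas-/- mice. From 3 to 6 weeks Bambi (0.82 in Fas+/+ and 0.55 in Fas-/- mice), Axin2 (0.59 and 0.42) and Tnfrsf19 (0.67 and 0.46) rose in both genotypes and Tcf7 (-0.55 and -0.34) fell, where 22.9% and 9.02% of all genes were called. Nkd2, an intracellular antagonist, was the only one of the 7 called against naive mice at 6 weeks (0.79 in Fas+/+ and 1.54 in Fas-/- mice), where 5.31% and 6.48% of all genes were. Between genotypes edgeR called 0 of the tested genes of the 4 lists at either time. At an unadjusted p under 0.05, where no share of all genes was taken, were 3 other antagonists or R-spondins, 3 receptor genes, 1 ligand gene and 1 feedback gene at 3 weeks, and 1, 4, 5 and 1 at 6 weeks. DESeq2 called 1 receptor gene and 1 ligand gene at 3 weeks, and 1 receptor gene, 2 ligand genes and 1 feedback gene at 6 weeks.

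The genes whose level followed each member most closely over the 20 libraries are given as a description, since all genes that respond to bleomycin correlate across these 5 groups. Sfrp1 was most like Chl1, Runx1 and Ctsc (Pearson's r = 0.985, 0.984 and 0.980), Frzb most like the profibrotic marker Cthrc1 and Scube1 (both 0.984), and Dkk2 most like Cdkn2a, Col28a1 and Eda2r (0.964, 0.963 and 0.960). Sost followed Adcy5, Asb2 and Grip2 (0.974, 0.964 and 0.961), and Rspo1 followed Cyp2s1, Cldn15 and the mesothelial marker Lrrn4 (0.972, 0.971 and 0.967). Rspo4 was most like Slc25a17 (0.943), Dkk3 most like Dnajc1 (0.940), Sfrp2 most like Prr15 (0.881), Rspo3 most like Rftn1 (0.876) and Wif1 most like Tsc22d4 (0.808). Among the members, Frzb went with Sfrp1 and Dkk2 (both 0.96) and against Rspo4 (-0.93), and Sost went with Rspo4 (0.83).

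Single-cell RNA-seq showed which cells held the transcripts. After filtering, 12059 of 13900 barcodes were kept, with 603 cells in naive mice, 2664 and 2608 in Fas+/+ and Fas-/- mice at 3 weeks and 3240 and 2944 at 6 weeks, and medians of 5768 to 8896 unique molecular identifiers (UMIs) a cell. The libraries shared cell barcodes: 1540 cells (12.8%) had a barcode also found in another library, and in the naive library 350 of 603 (58.0%). For barcodes shared by the naive library and that of Fas-/- mice at 6 weeks the ratio of UMIs had a median of 10.8 and quartiles of 10.2 and 11.4, a near-constant ratio. The 1007 shallower copies held 0.850% of the UMIs kept. Leaving out these copies moved 1 of the 50 library values of the 10 genes beyond its counting interval, while leaving out every shared cell, which removed the deeper cells of the naive library (median 11972.5 UMIs against 4520), moved 15, among them Rspo1 in naive mice, from 0.803 to 0.0768 UMIs per 10000, Sfrp2, from 0.855 to 0.0230, and Sost, from 0.110 to 0.0537.

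Cells were clustered without the members and the 4 pathway lists and named from marker lists, as "-like" classes. Clusters 1 (led by Clec11a, Tmem35a and Ppp1r3a) and 5 (led by Saa3, Lcn2 and Hp) had no class and are named by those genes. Cluster 21, of 81 shallow cells (median 668 UMIs), was also left without a class. Of the lipofibroblast-like clusters, 1 rested on 5 of 10 markers with none among its leading 10 genes. Another, of 464 shallow cells (median 1098 UMIs), rested on 4 of 10 markers, with 21 cells from naive mice and 153 from Fas-/- mice at 6 weeks. Of the vascular smooth muscle-like clusters, 1 was led by Rgs5 and also held 7 of 10 pericyte markers. Despite the CD31 gate, endothelial-like cells were 36.8% of the cells of Fas+/+ mice at 6 weeks and 1.66% to 9.23% elsewhere. No doublet caller was run, and shares of cells by class include the shallower copies of shared barcodes. Those copies were 1.99% of naive cells, 3.72% and 11.2% of Fas+/+ and Fas-/- cells at 3 weeks, and 5.46% and 14.5% at 6 weeks. Class shares without them are not given here. With 1 library per condition, single-cell values have no replicate and no test, and their intervals (exact Poisson for UMIs, Clopper-Pearson for shares, both 95%) cover counting error only.

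Sost was the most restricted of the 10. Of its 572 UMIs, 97.4% lay in vascular smooth muscle-like cells, which were 6.70% of cells, at 0.827 UMIs per 10000 (0.760 to 0.898). A Sost UMI was seen in 12.4% of these cells (median 7562.5 UMIs a cell) and in 0.318% of endothelial-like cells (median 4724 UMIs). No other class was above 0.00561 UMIs per 10000. Rspo1 was next, with 87.3% of its 6241 UMIs in mesothelial-like cells at 6.44 UMIs per 10000 (6.27 to 6.61). Of those cells 76.9% (median 11431 UMIs) held an Rspo1 UMI, against 0.371% of endothelial-like cells. Sfrp2 shared this place, with 76.1% of its UMIs in mesothelial-like cells at 8.94 UMIs per 10000, and lower levels of 0.548 to 0.580 in vascular smooth muscle-like, Col14a1 fibroblast-like and profibrotic fibroblast-like cells. Of 876 cells with Sfrp2 and 1072 with Rspo1, 439 held both, 50.1% of the former and 41.0% of the latter.

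Frzb and Dkk2, the genes that rose most in bulk RNA, lay mostly in profibrotic fibroblast-like cells (led by Spp1, Thbs4 and Cthrc1), which were 7.55% of cells. Frzb was at 0.669 UMIs per 10000 there (0.632 to 0.707), with 80.7% of its 1557 UMIs, and 10.2% lay in the Saa3, Lcn2 cluster at 0.121. Dkk2 was at 1.28 UMIs per 10000 (1.23 to 1.33), with 80.3% of its 2992 UMIs. Profibrotic fibroblast-like cells were deep (median 17422 UMIs), and 36.4% of them held a Frzb UMI and 47.6% a Dkk2 UMI, against 0.212% and 0.954% of endothelial-like cells. Of 494 cells with Frzb and 639 with Dkk2, 241 held both, 48.8% of the former and 37.7% of the latter. Sfrp1 was broader. Its level was 6.96 UMIs per 10000 in the Saa3, Lcn2 cluster, 5.42 in profibrotic fibroblast-like and 5.06 in Hhip myofibroblast-like cells, 3.27 in the Clec11a cluster and 0.149 in endothelial-like cells.

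Wif1 lay in 2 classes, Hhip myofibroblast-like cells at 1.40 UMIs per 10000 (40.4% of its 1414 UMIs) and Col14a1 fibroblast-like cells at 0.530 (46.1%). Dkk3 was seen in nearly all mesenchymal classes, between 0.931 UMIs per 10000 in vascular smooth muscle-like and 3.13 in Clec11a cells, with 2.81 in pericyte-like cells, 0.758 in mesothelial-like cells and 0.127 in endothelial-like cells. Rspo3 was highest in lymphatic endothelial-like cells, at 1.00 UMIs per 10000 (0.788 to 1.26), but these 93 cells held 4.92% of its 1503 UMIs, and 36.2% lay in profibrotic fibroblast-like cells at 0.290. Rspo4 was sparse, at 178 UMIs in all, of which 57.9% lay in lipofibroblast-like cells at 0.0543 UMIs per 10000 (0.0443 to 0.0659). A UMI was found in 3.26% of those cells (median 6642 UMIs) and in 0.0530% of endothelial-like cells. No cell held both a Sost and an Rspo4 UMI, but the 115 and 149 cells with either are too few to show whether the genes share cells. The class with the highest level depended on the clustering for some members. At resolution 1.2 Wif1 was highest, at 2.90 UMIs per 10000, in an unnamed cluster of 49 shallow cells (median 757 UMIs), of which 36 were from Fas-/- mice at 6 weeks. At resolution 0.4 Rspo3 in lymphatic endothelial-like cells was at 0.379 and Rspo4 in lipofibroblast-like cells at 0.0301, while Sfrp1 led in profibrotic fibroblast-like and Dkk3 in pericyte-like cells. Sfrp2, Frzb, Dkk2, Sost and Rspo1 led in the same class at all 3 resolutions.

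**Figure D3:**
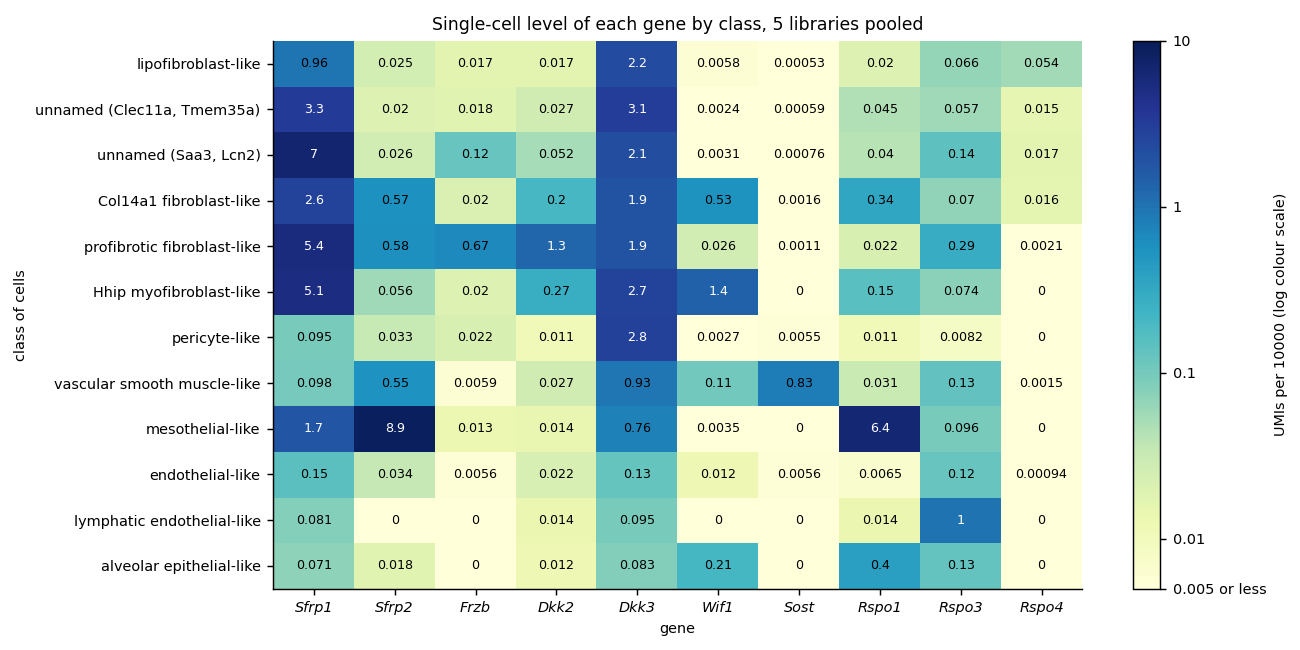
UMIs per 10000 (numbers and log color scale, values of 0.005 or less in the palest color) of the 10 genes (columns) in 12 classes of cells (rows), 5 libraries pooled. Sost is at 0.83 in vascular smooth muscle-like cells and near 0 elsewhere, Rspo1 and Sfrp2 peak in mesothelial-like cells, and Frzb and Dkk2 peak in profibrotic fibroblast-like cells.

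Of the R-spondin receptors, Lgr5 and Lgr6 are given by class, and Lgr4 in bulk RNA only. In single cells Lgr5 was at 0.716 UMIs per 10000 and Lgr6 at 1.07 in Hhip myofibroblast-like cells, and Lgr6 was at 0.793 in vascular smooth muscle-like cells, the class with Sost. In bulk RNA Lgr4 (log2FC -0.60, adjusted p = 0.00443) and Lgr6 (-0.76, adjusted p = 0.0107) were called lower at 3 weeks in Fas+/+ mice, and these 3 receptors were picked out after their values were seen.

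Within a class, levels could be set side by side across the 5 libraries. In vascular smooth muscle-like cells Sost was at 1.31 UMIs per 10000 (1.00 to 1.69) in naive mice, at 0.774 (0.645 to 0.922) in Fas+/+ mice and 0.476 (0.348 to 0.635) in Fas-/- mice at 3 weeks, and at 1.24 (1.08 to 1.42) and 0.587 (0.486 to 0.703) respectively at 6 weeks. The Fas-/- library was the lower of the pair at each time. At 6 weeks the 205 UMIs of Fas+/+ mice lay in 19 cells (12.4% of the class) and the 119 of Fas-/- mice in 36 cells (15.2%), so few cells carried the level, and the share of vascular smooth muscle-like cells at 6 weeks was 4.72% in Fas+/+ mice and 8.05% in Fas-/- mice, or 7.47% and 8.81% of the cells that were not endothelial-like. Without the shared barcodes, which leave the naive library under 20 such cells, the order was the same (0.786 against 0.472 and 1.25 against 0.568). In lipofibroblast-like cells the counting intervals of Rspo4 overlapped in all 5 libraries, from 0.0369 (0.0202 to 0.0620) in Fas-/- mice at 3 weeks to 0.0841 (0.0471 to 0.139) in naive mice, while these cells made up 35.0% of naive cells and 12.8% to 26.3% of the cells of the other libraries (35.6%, and 20.3% to 28.4%, without endothelial-like cells). The part of these shares in the bulk changes of Rspo4 was not tested.

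In profibrotic fibroblast-like cells, of which the naive library held only 10, Frzb was at 0.319 (0.239 to 0.417) and 0.371 (0.286 to 0.473) UMIs per 10000 in Fas+/+ and Fas-/- mice at 3 weeks and at 0.766 (0.702 to 0.834) and 0.719 (0.663 to 0.778) at 6 weeks. Dkk2 was at 1.52 (1.34 to 1.72) and 2.15 (1.94 to 2.38) at 3 weeks and at 1.32 (1.24 to 1.41) and 1.02 (0.950 to 1.09) at 6 weeks. Rspo3 stood out in Fas-/- mice at 3 weeks, at 0.822 (0.693 to 0.968) against 0.206 to 0.301 in the other 3 libraries. At 6 weeks neither Frzb nor Dkk2 made up a higher share of the UMIs of profibrotic fibroblast-like cells in Fas-/- than in Fas+/+ mice. Profibrotic fibroblast-like cells were 11.04% of cells in Fas-/- and 7.75% in Fas+/+ mice. The Fas+/+ library held far more endothelial-like cells, and without those the shares were 12.1% in Fas-/- and 12.3% in Fas+/+ mice. All these shares count the shallower copies of shared barcodes, which were 14.5% of the Fas-/- and 5.46% of the Fas+/+ library. The order of the shares without the copies was not tested. Sfrp1 in the Saa3, Lcn2 cluster was at 1.92 UMIs per 10000 in Fas+/+ mice and 3.67 in Fas-/- mice at 3 weeks, and at 12.2 and 6.92 at 6 weeks. Sfrp2 in mesothelial-like cells stood higher in each Fas-/- library than in its Fas+/+ partner (10.9 against 6.95 at 3 weeks and 11.5 against 7.98 at 6 weeks), and Rspo1 in the same cells ran from 5.65 to 7.64 over the 5 libraries. Wif1 in Hhip myofibroblast-like cells was at 1.85 and 1.69 at 6 weeks and between 0.757 and 1.00 in the other 3 libraries.

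**Figure D4:**
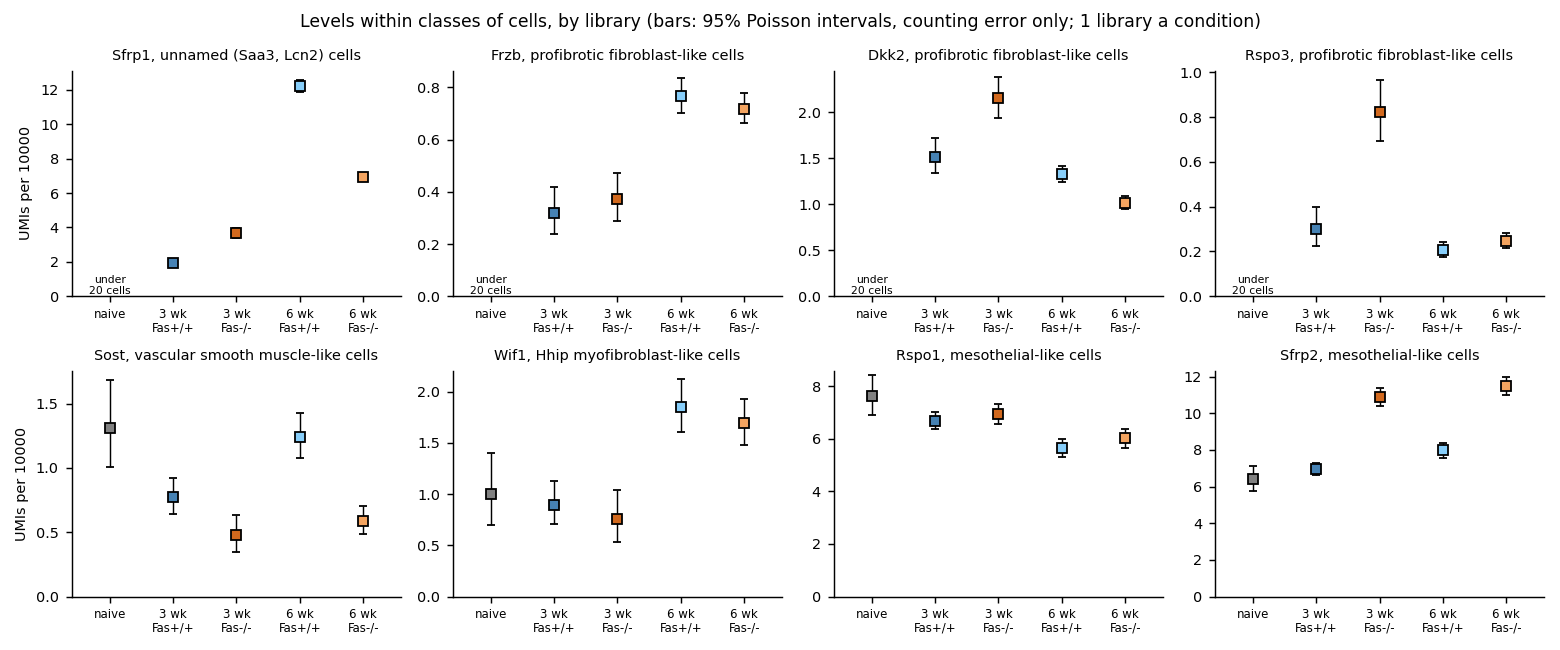
UMIs per 10000 (vertical axis, linear) of 8 of the genes within a class of cells, by library, with exact 95% Poisson intervals and 1 library a condition. Sost in vascular smooth muscle-like cells is lower in each Fas-/- library than in its Fas+/+ partner (0.476 against 0.774 and 0.587 against 1.24), and Frzb in profibrotic fibroblast-like cells is higher at 6 than at 3 weeks in both genotypes.

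Set beside each other, bulk and single-cell levels had the same order for some members and not for others. Sost was highest in naive mice by both (29.95 ± 9.08 CPM, SD, n = 4, and 0.110 UMIs per 10000), although without shared barcodes its naive single-cell level of 0.0537, from 7 UMIs in 1 cell, lay below the 0.0610 of 6-week Fas+/+ mice. Its 6-week level was lower by both in Fas-/- mice (9.64 ± 1.58 against 14.04 ± 1.60 CPM in Fas+/+ mice, and 0.0359 against 0.0597 UMIs per 10000, or 0.0373 against 0.0741 without endothelial-like cells). At 3 weeks the direction was not shared. The single-cell level of Sost was 0.0281 in Fas-/- against 0.0492 UMIs per 10000 in Fas+/+ mice. Its bulk log2 fold change was not called and lay above 0, from 0.015 to 0.68 with 1 library left out in turn. Frzb, Dkk2, Sfrp1 and Rspo3 were lowest in naive mice by both. Rspo4 was highest in naive mice by both. Its bulk level at 6 weeks was 2.15 ± 0.598 CPM with Fas deletion and 4.32 ± 0.742 CPM without, whereas its single-cell levels, in the same order, were 0.0137 and 0.0106 UMIs per 10000, with counting intervals that overlapped. The bulk level of Dkk2 at 6 weeks had the higher mean in Fas-/- mice, but its single-cell level was 0.278 in Fas-/- and 0.333 UMIs per 10000 in Fas+/+ mice. With 1 single-cell library a condition, the assignment of these libraries to their conditions could not be checked here. For the genotype, the study reports less expression of the floxed Fas exon in single cells of Fas-/- mice at each time. Every single-cell comparison of 3 with 6 weeks rests on the labels. The order of 3 and 6 weeks in Fas+/+ mice differed. Bulk CPM fell from 564 ± 322 to 183 ± 35.0 for Sfrp1, from 24.8 ± 15.9 to 3.94 ± 2.71 for Frzb and from 31.8 ± 19.2 to 8.43 ± 5.48 for Dkk2, while single-cell levels were 1.23 and 3.68, 0.0283 and 0.191, and 0.127 and 0.333 UMIs per 10000. For Rspo1 and Dkk3 bulk CPM rose, from 23.05 ± 6.91 to 49.2 ± 8.92 and from 335 ± 13.0 to 522 ± 58.7, and single-cell levels were 0.726 and 0.352, and 2.14 and 1.41. The profibrotic cells moved with this order: profibrotic markers ran from 10907 to 56303 CPM at 3 weeks and from 13510 to 18271 CPM at 6 weeks in bulk RNA of Fas+/+ mice, while profibrotic fibroblast-like cells were 4.24% of cells at 3 weeks and 7.75% at 6 weeks in the single-cell libraries. Endothelial-like cells, which held little Dkk3 and Rspo1, were 9.23% and 36.8% of the same libraries. Without them the single-cell levels at 3 and 6 weeks kept their order, at 2.25 and 1.76 for Dkk3, 0.766 and 0.444 for Rspo1, 1.29 and 4.62 for Sfrp1, 0.0287 and 0.241 for Frzb and 0.130 and 0.416 UMIs per 10000 for Dkk2. The order also differed in Fas-/- mice for Dkk3 and Rspo1. Both rose in bulk RNA, and single-cell levels at 3 and 6 weeks were 2.70 and 1.74 for Dkk3 and 0.796 and 0.371 for Rspo1. The bulk changes of Sfrp1, Frzb and Dkk2 were not called there. Their single-cell levels were 1.92 and 4.22, 0.0580 and 0.211, and 0.313 and 0.278. Endothelial-like cells were 7.13% and 8.59% of those libraries. The part of the profibrotic cells in these differences was not tested.

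**Figure D5:**
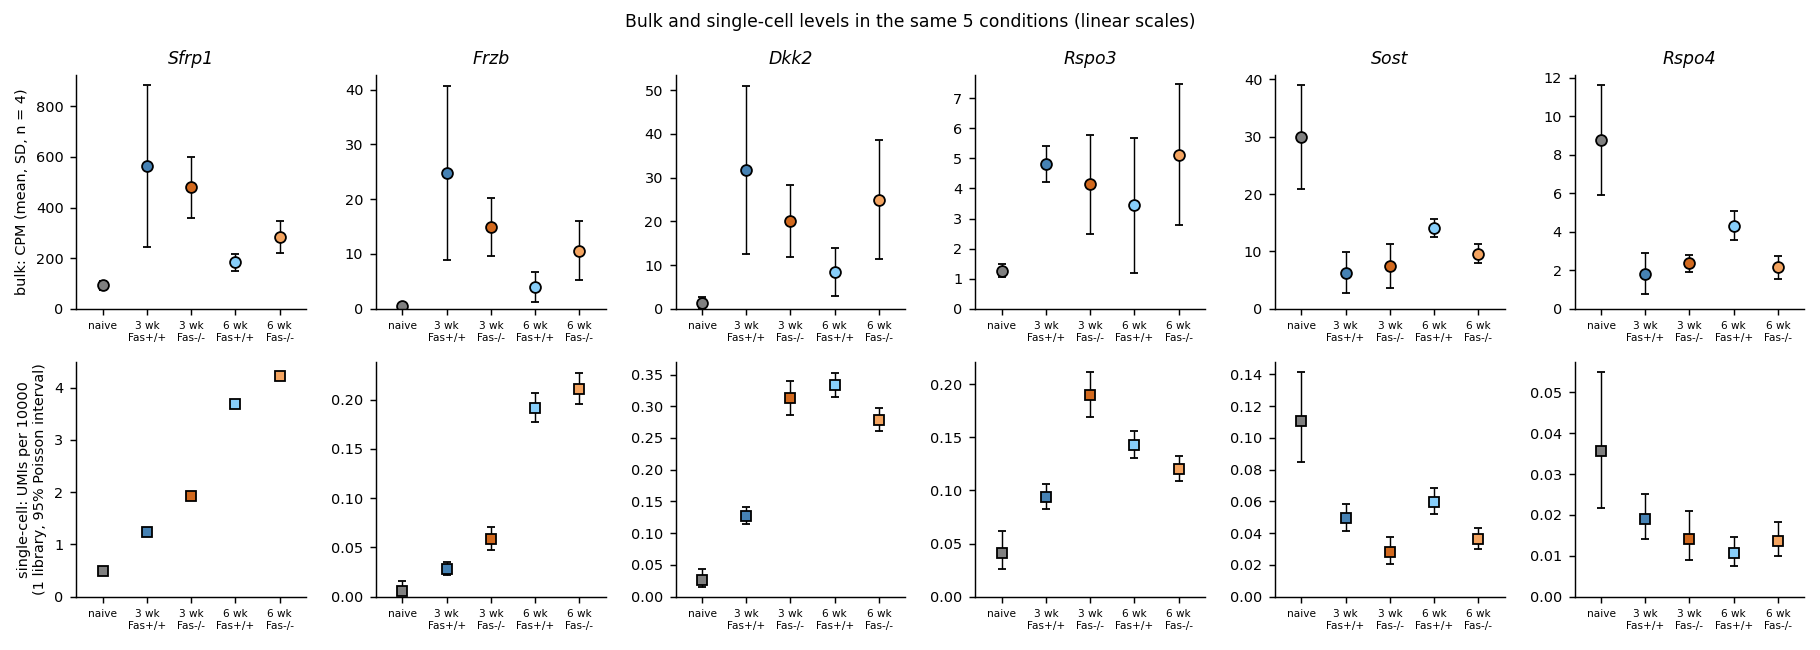
Bulk CPM (upper row, mean with SD, n = 4) and single-cell UMIs per 10000 (lower row, 1 library a condition, exact 95% Poisson intervals) of 6 genes in the same 5 conditions, all on linear scales. From 3 to 6 weeks in Fas+/+ mice, Sfrp1, Frzb and Dkk2 are lower at 6 weeks in the upper row and higher in the lower row.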

How the data were processed

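Bulk RNA-seq reads were trimmed with skewer, aligned to GRCm38 with Hisat2 and counted per Ensembl gene with htseq-count by the authors, who deposited raw counts for 20 libraries, and the strand setting of the counting is not given in the sources used here. The single-cell counts are UMI counts per gene and cell, made with Cell Ranger by the authors and deposited as 5 matrices. A deposited table of normalized counts was not used.

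Genes with enough counts by filterByExpr (minimum count 10) were kept, 15773 of 47729. Groups were compared with edgeR 4.0.16 (TMM, quasi-likelihood F-test, Benjamini-Hochberg adjustment over all tested genes, called at 0.05) in 1 fit of 5 groups. DESeq2 1.42.0, other filters, marker covariates and fits without single libraries were alternatives. Single genes also had a two-sided exact permutation test on log2 CPM (prior count 2). The edgeR script was tested on simulated data for 1 of the comparisons only. All-gene medians and non-overlapping groups were taken over the same genes. No share of all genes was taken for unadjusted p-values. RPKM used the union of exons.

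Barcodes outside 200 to 7500 detected genes, or above 20% mitochondrial UMIs, were dropped, and the rest were integrated and clustered with Seurat 5.3.0 (20 components, resolution 0.8, members and pathway lists left out). A cluster was named where at least 3 markers of a list had a log2 ratio of 1 or more and the list's mean was at least 0.5. Intervals and floors (a count of 3) cover counting error only, since libraries have no replicate. Leaving out the pair of bulk libraries that stood apart, shared barcodes or endothelial-like cells was chosen after the data were seen.

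The members, gene lists and markers were chosen with earlier results of these data known. All members were named, with the 3 genes most correlated with each over the 20 libraries, and from each pathway list the called genes with the smallest adjusted p.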

Additional observations from a re-analysis of the deposited data

Results flagged for a closer look

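Of 50 sets of 4 bulk libraries looked at, 10 genes in 5 groups, 2 held a library far from the other 3 by Dixon's criterion at the 95% level, and chance gives about 1 in 20. In Fas-/- mice at 6 weeks Dkk2 was at 45.2 CPM in replicate 1 and between 16.4 and 20.3 CPM in the other 3 libraries, a gap of 0.867 of the range. In Fas-/- mice at 3 weeks Wif1 was at 3.41 CPM in replicate 4 and between 9.72 and 10.1 CPM in the other 3, a gap of 0.940 of the range. That library is one of the pair that stood apart in its endothelial and profibrotic markers, and their part in the value was not tested.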

How the results depend on the processing

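Apart from fits with 1 library left out, 9 alternatives were run on all 90 fold changes of members, and 40 calls were lost and 22 gained, 13 of the latter without the pair of 3-week libraries that stood apart, and 3 called values changed sign. Those 3 were Rspo1 with the mesothelial marker covariate, at 0.0067 (3-week Fas+/+ against naive), 0.14 (3-week Fas-/- against naive) and -0.091 (6 against 3 weeks in Fas-/-). The cause of the changes below was not tested.

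For 6-week Fas+/+ against naive mice (3 members called) the count was 0 with the replicate block, 0 with the alveolar epithelial covariate, 5 with the endothelial covariate, 5 with the compared groups alone and 6 without the pair of libraries that stood apart. In the same order, these fits called 754, 11, 720, 1595 and 2101 of all genes, against 837 in the main fit. With the alveolar covariate 5 members were called in 3-week Fas+/+ and 4 in 3-week Fas-/- mice against naive. For 6 against 3 weeks in Fas-/- mice 1 was called. With the mesothelial covariate 4 were called in 3-week Fas-/- mice against naive, and 1 in each genotype for 6 against 3 weeks. Without the pair that stood apart, 2 were called between genotypes at each time and 4 in the interaction. With 1 library left out in turn, counts ran from 0 to 5 for 6-week Fas+/+ against naive, 0 to 1 and 0 to 0 between genotypes at 3 and 6 weeks, 1 to 4 for 6 against 3 weeks in Fas-/- mice and 0 to 2 in the interaction. Between genotypes at 6 weeks, log2FC then ran from -0.18 to 0.23 for Wif1 and from -0.19 to 0.016 for Rspo1 (0.0012 without Fas-/- replicate 1).

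Replicate numbers did not pair libraries: deviations of same-numbered libraries correlated between -0.46 and 0.40, and 6 of 20 libraries were most like one of their own number. Over all genes, DESeq2 called 163 between genotypes at 3 weeks (edgeR 27), 166 at 6 weeks (8), 90 in the interaction (1), 1396 in 6-week Fas+/+ (837) and 1567 in 6-week Fas-/- mice against naive (1022). The block gave 45 between genotypes at 3 weeks, 0 at 6 weeks and 3 in the interaction. Without the pair that stood apart these were 602, 220 and 392, with 2101 and 2394 for the 6-week groups against naive and 5777 and 2685 for 6 against 3 weeks in Fas+/+ and Fas-/- mice. Every gene with at least 1 count gave 891 for the last (1422) and 3 in the interaction. With the compared groups alone 1595 were called in 6-week Fas+/+ mice against naive and 5, 1 and 0 between genotypes at 3 and 6 weeks and in the interaction. The alveolar covariate gave 1590 and 607 for the 3-week groups (6517 and 5045), 11 and 243 for the 6-week groups against naive, 0 between genotypes at 6 weeks, 717 for 6 against 3 weeks in Fas-/- mice and 0 in the interaction. The mesothelial covariate gave 2656 and 1841 for the 3-week groups, 3 between genotypes at 6 weeks and 736 and 30 for 6 against 3 weeks in Fas+/+ (3615) and Fas-/- mice. The endothelial covariate gave 3593 for 3-week Fas+/+ mice and 38 in the interaction. In single-cell data 76 recomputed levels moved beyond counting error and 224 did not, and 43 of 50 shares of cells with a UMI moved once thinned to 3000 UMIs.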
